A study of Mus musculus with 6 samples.

Results

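The genes described here encode the signalling core of the T cell antigen receptor. They are the 4 CD3 chains Cd3d, Cd3e, Cd3g and Cd247, the coreceptor Cd4, the kinases Lck and Zap70, and the adaptors Lat and Skap1. They were chosen by gene symbol, and all 9 were found among the 55011 symbols of the count table. All 9 were also among the 13859 genes that passed the filter on low counts. RNA was measured by sequencing in whole visceral adipose tissue, the fat around the abdominal organs. The samples were 3 labelled Bmal1KO and 3 labelled Bmal1WT, all from male C57BL/6 mice aged 30 weeks. Every mouse carried Foxp3.Cre-YFP, a Cre recombinase made under the control of the gene for the regulatory T cell factor FOXP3. The groups differed in Bmal1, listed in the table as Arntl, a transcription factor of the circadian clock. Feeding was on low-fat food for the first 14 weeks and on high-fat food for the 16 weeks after that in both groups, and tissue was taken at ZT0, when lights came on. Such a Cre is made in cells that express Foxp3, whereas RNA came from all cells of the tissue, and how the Bmal1 allele was made is not given in the sources used here.

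A T cell recognises antigen through a pair of variable receptor chains that have almost no cytoplasmic tail of their own. The signal is carried by the CD3 chains, whose tails hold tyrosine motifs that LCK phosphorylates after CD4 or CD8 has brought it to the receptor. ZAP70 then docks on these motifs and phosphorylates LAT, the scaffold on which the downstream enzymes assemble, while SKAP1 links the receptor to integrin adhesion. In visceral fat, T cells are a small part of the cells present, among adipocytes and macrophages, and they include a known population of regulatory T cells.

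Libraries held 6514620 to 8678772 counts in Bmal1KO and 8779413 to 9529198 in Bmal1WT, with adipocyte markers abundant in all of them. Arntl itself had 324, 289 and 314 counts in Bmal1KO replicates 1 to 3 and 273, 242 and 373 in Bmal1WT replicates 1 to 3 (log2 fold change 0.27, SE 0.22, adjusted p = 0.719 by edgeR's quasi-likelihood test), which in whole tissue is a weak check of the labels. Foxp3 had 3, 0 and 2 counts in Bmal1KO and 0 in each Bmal1WT library, which does not exceed 3 counts, the floor set for a library, and this depth cannot show a difference. Single libraries stood apart in each group. Over 17 epididymis and testis genes, the 3 Bmal1KO libraries held 0.793 to 4.51 CPM (counts scaled to library size, on totals adjusted by TMM), whereas Bmal1WT replicate 1 held 471 CPM and the other Bmal1WT libraries 0.861 and 1.17 CPM. Bmal1KO replicate 1 had counts on 30019 genes, against 20132 and 20145 in Bmal1KO replicates 2 and 3 and 19009 to 20059 in Bmal1WT. The results below are therefore given with and without these replicates where that matters.

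All 9 genes had higher fitted levels in Bmal1KO fat, with log2 fold changes from 1.10 for Cd247 to 2.44 for Cd3e and a median of 1.59, where the median over all genes tested was 0.02. Of all genes, 52% had a log2 fold change above 0 and 5.17% one of at least 1, which all 9 reached. After Benjamini-Hochberg adjustment over 13859 genes, none of the 9 was called in the edgeR quasi-likelihood test, nor was any other gene (0%), the smallest adjusted p being 0.265. At an unadjusted p under 0.05, 7 of the 9 were higher, and 0 lower, beside 5.05% and 4.26% of all genes in these directions. The 52% and 5.05% also stand beside the counts of higher genes in other lists below. The 3 Bmal1KO libraries lay above all 3 Bmal1WT libraries for 6 of the 9 and below them for 0, beside 7.83% and 7.85% of all genes. DESeq2, an alternative test with its own filter, called Cd3e, Cd3g and Lat higher, beside 0.25% of the genes it tested in that direction and 0.417% in either. The 9 were listed with earlier results of these data known, so these counts describe them and are no independent evidence. In bulk tissue, more T cells and more RNA of these genes per T cell cannot be told apart.

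**Figure D1:**
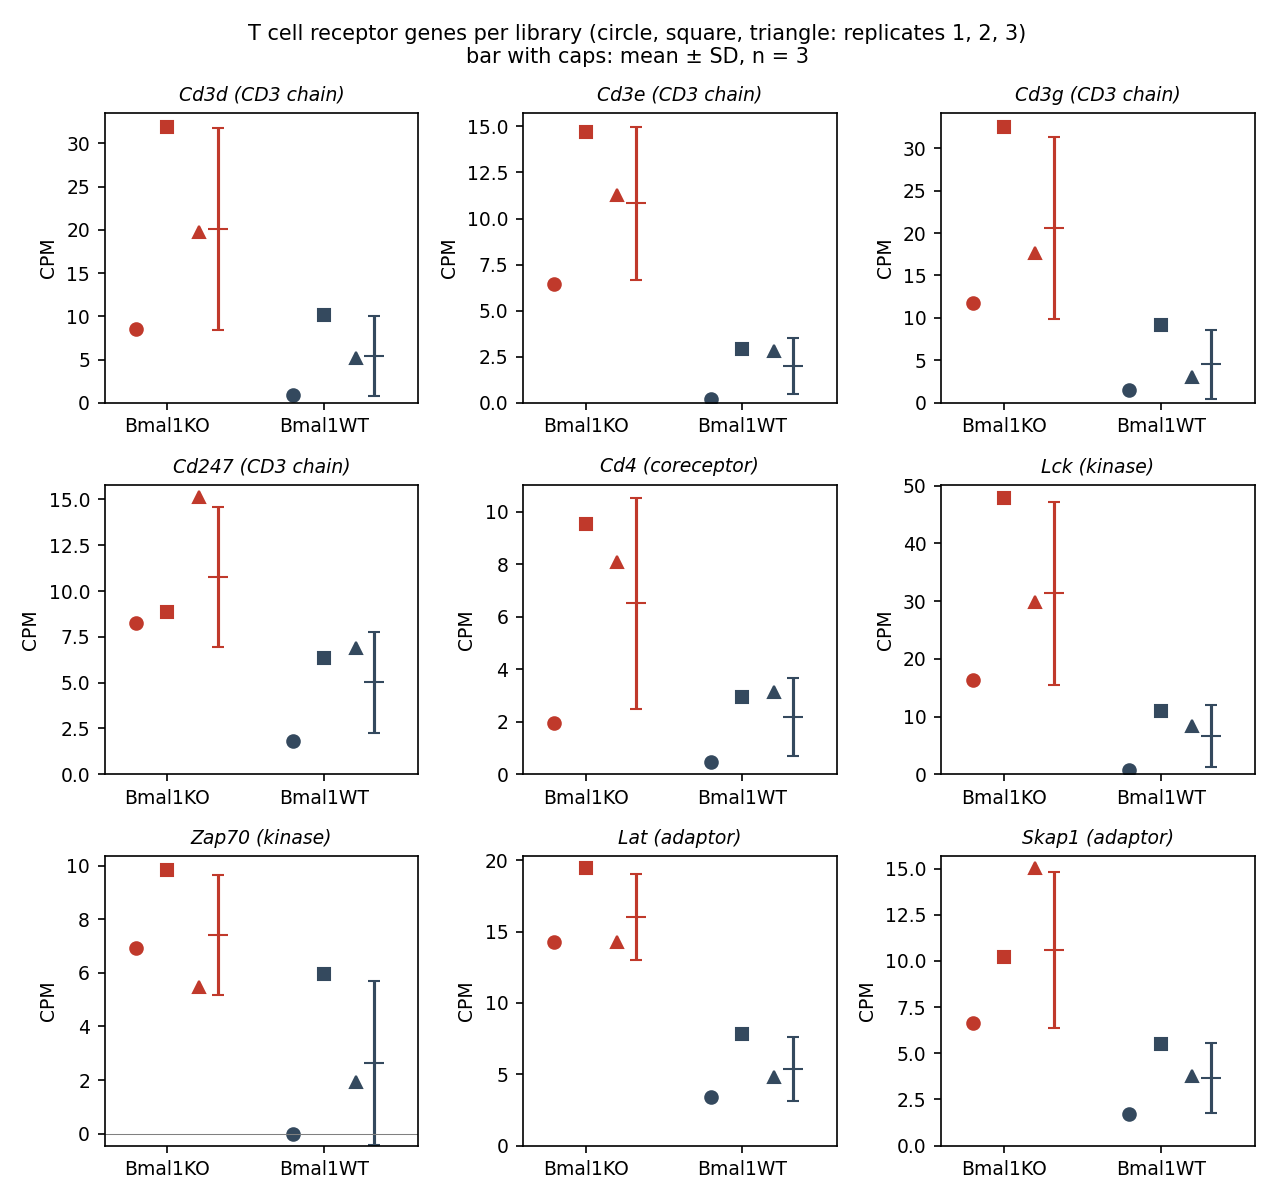
Level of each of the 9 genes in CPM, with Bmal1KO libraries on the left and Bmal1WT libraries on the right of each panel; symbols mark replicates 1 to 3 and the capped bar the mean ± SD (n = 3). Bmal1KO libraries sat above all Bmal1WT libraries for Cd3e, Cd3g, Cd247, Lck, Lat and Skap1, while the groups overlapped for Cd3d, Cd4 and Zap70.

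The CD3 chains gave the largest fold change of the set. Cd3e, which pairs with the delta and the gamma chain, had 6.47, 14.7 and 11.3 CPM in Bmal1KO replicates 1 to 3, against 0.228, 2.93 and 2.80 CPM in Bmal1WT replicates 1 to 3. The lowest Bmal1KO library was thus 2.21 times the highest Bmal1WT library, the widest gap among the 9 genes. Its mean was 10.8 ± 4.15 CPM in Bmal1KO and 1.985 ± 1.52 CPM in Bmal1WT (SD, n = 3 each), a log2 fold change of 2.44 (SE 0.67) that missed the test over all genes (edgeR adjusted p = 0.414) and passed in DESeq2 (adjusted p = 0.0485). Bmal1WT replicate 1 held only 2 Cd3e counts, under the floor of 3 counts, and without that library the log2 fold change was 1.92.

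Cd3g, the gamma chain, had 11.7, 32.5 and 17.6 CPM in Bmal1KO replicates 1 to 3, against 1.48, 9.14 and 3.01 CPM in Bmal1WT. The groups did not overlap, but Bmal1WT replicate 2 came close to Bmal1KO replicate 1. The log2 fold change was 2.19 (SE 0.60, adjusted p = 0.414 by edgeR and 0.0314 by DESeq2). With 1 library left out it ranged from 1.69 without Bmal1KO replicate 2 to 3.19 without Bmal1WT replicate 2. It was 1.78 without Bmal1WT replicate 1. Cd3d, the delta chain, had 8.57, 31.9 and 19.7 CPM in Bmal1KO and 0.913, 10.2 and 5.16 CPM in Bmal1WT. Here Bmal1KO replicate 1 lay below Bmal1WT replicate 2, so the groups overlapped, with a log2 fold change of 1.89 (SE 0.71, edgeR adjusted p = 0.477). Without Bmal1WT replicate 1 the log2 fold change was 1.40. Cd247, the zeta chain, whose tail carries more of the tyrosine motifs than any other CD3 chain, differed least. Its levels were 8.27, 8.83 and 15.1 CPM in Bmal1KO, against 1.83, 6.33 and 6.89 CPM in Bmal1WT. The groups did not overlap, although Bmal1KO replicate 1 stood only 1.20 times above the highest Bmal1WT library (log2 fold change 1.10, SE 0.49, edgeR adjusted p = 0.528). Cd247 overlaps the opposite-strand gene Pou2f1 in GENCODE M21, and since the library does not mark strand, reads from their shared bases cannot be told apart. Pou2f1 had 56, 65 and 107 counts in Bmal1KO and 53, 90 and 101 in Bmal1WT.

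The delta, gamma and epsilon chains lie side by side on mouse chromosome 9 (mm10), within 40.1 kb. Cd3g (44969572 to 44980431, minus strand) and Cd3d (44981786 to 44987339, plus strand) are transcribed away from each other from starts 1355 bases apart, and Cd3e (44998740 to 45009627, minus strand) follows. Cd247 lies on chromosome 1 (165788681 to 165877277). Of the genes within 100 kb of the Cd3d start, 4 others were tested. These were looked at after the values of the CD3 genes were seen. The log2 fold change was 0.03 (SE 0.26) for Atp5l, a subunit of ATP synthase, and 0.46 (SE 0.23) for the ubiquitin ligase Ube4a. Mpzl3 had one of 1.77 (SE 0.85) and Jaml, an adhesion molecule of leukocytes, one of -0.53 (SE 0.55). None of these 4 passed the edgeR test over all genes (adjusted p = 0.549 to 0.979).

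**Figure D2:**
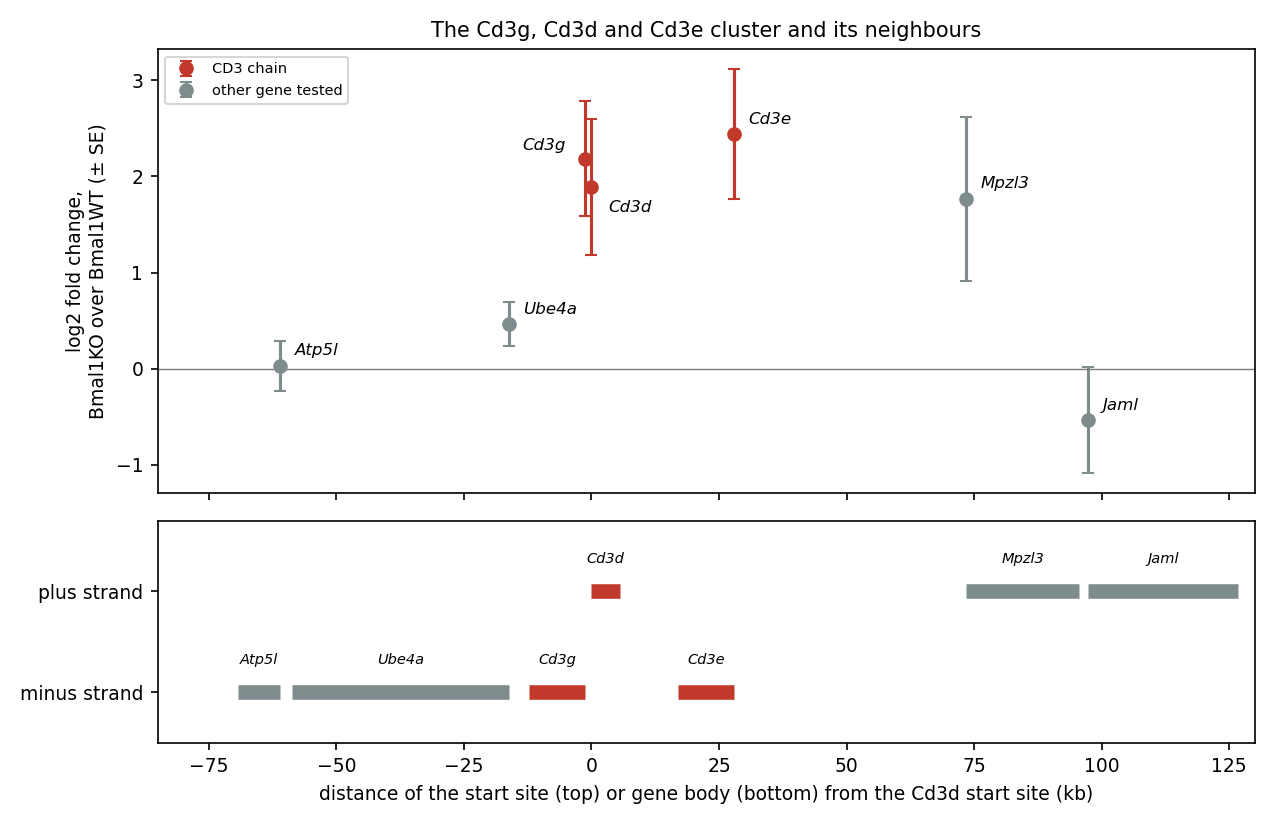
Log2 fold change (Bmal1KO over Bmal1WT, ± SE) of the genes tested within 100 kb of the Cd3d start, placed by the distance of their start sites in kb, with gene bodies by strand underneath. The 3 CD3 genes stand at 1.89 to 2.44, next to Atp5l and Ube4a at 0.03 and 0.46 on one side and Mpzl3 and Jaml at 1.77 and -0.53 on the other.

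Promoter sequences (RefSeq, GRCm38.p6, the mm10 assembly, 250 bases before to 50 after the start) matched 7 of the 9 genes, with 10 promoters in all. The windows are chr9:44980382-44980681 (minus strand) for Cd3g, chr9:44981536-44981835 (plus strand) for Cd3d, chr9:45009562-45009861 (minus strand) for Cd3e and chr7:126369519-126369818 (minus strand) for Lat. The promoters of the neighbouring CD3 genes are shown because these genes include the largest fold change of the set and lie together. That of Lat is shown because Lat had the smallest p of the set and its window holds the letters CACGTG. Capitals mark matches, on either strand, to 5 short motifs. CACGTG is the E-box that BMAL1 binds with CLOCK. CAGGAAG is an ETS core with its flank. TGTGGT is a RUNX core. AGATAA is a motif of the GATA family. TGACGT is a motif like the CRE. No motif overlapped another in these 4 promoters.
Cd3g: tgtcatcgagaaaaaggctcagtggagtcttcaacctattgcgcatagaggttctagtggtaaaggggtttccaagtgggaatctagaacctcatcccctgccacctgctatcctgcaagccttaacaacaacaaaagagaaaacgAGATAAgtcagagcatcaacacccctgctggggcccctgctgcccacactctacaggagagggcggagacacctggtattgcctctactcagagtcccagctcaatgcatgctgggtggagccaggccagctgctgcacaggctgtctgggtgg
Cd3d: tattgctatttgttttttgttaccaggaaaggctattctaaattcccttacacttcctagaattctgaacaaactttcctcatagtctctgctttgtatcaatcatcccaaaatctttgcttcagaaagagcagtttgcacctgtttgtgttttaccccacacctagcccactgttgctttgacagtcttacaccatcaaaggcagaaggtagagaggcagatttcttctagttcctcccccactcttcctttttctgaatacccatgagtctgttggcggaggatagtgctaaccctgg
Cd3e: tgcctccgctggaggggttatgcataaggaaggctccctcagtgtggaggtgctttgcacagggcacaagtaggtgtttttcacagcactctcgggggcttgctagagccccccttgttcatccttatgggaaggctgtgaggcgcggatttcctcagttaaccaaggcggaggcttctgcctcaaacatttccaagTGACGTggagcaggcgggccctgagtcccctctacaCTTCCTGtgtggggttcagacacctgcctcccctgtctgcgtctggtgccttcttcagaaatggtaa
Lat: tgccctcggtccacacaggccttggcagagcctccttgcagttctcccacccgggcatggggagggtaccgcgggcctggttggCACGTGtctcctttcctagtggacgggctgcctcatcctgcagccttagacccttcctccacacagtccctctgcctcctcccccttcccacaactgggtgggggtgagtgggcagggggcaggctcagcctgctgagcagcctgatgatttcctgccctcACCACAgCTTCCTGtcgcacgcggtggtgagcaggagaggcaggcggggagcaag
The ETS motif was present in 6 of the 10 promoters of these genes (Cd247, Cd3e, Lat, both of Lck and 1 of Zap70), beside 13.3% of 32851 promoters of the same length. The RUNX motif was present in 3 (Lat, Lck and Zap70; 16.8% of all), the GATA motif in 1 (Cd3g; 11.2%), and the CRE-like motif in 2 (Cd3e and Zap70; 7.5%). CACGTG was found in 2, those of Lat and of 1 Zap70 start, beside 7.2% of all promoters. The Cd3d window held none of the 5 motifs. A match is a run of letters in this window and no evidence of binding.

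Cd4, the coreceptor of helper and regulatory T cells, had 1.95, 9.51 and 8.07 CPM in Bmal1KO replicates 1 to 3, against 0.456, 2.93 and 3.12 CPM in Bmal1WT. Bmal1KO replicate 1, with 13 counts, lay inside the Bmal1WT range, and the other Bmal1KO libraries lay far above it. The log2 fold change was 1.59 (SE 0.73, edgeR adjusted p = 0.537), and 1.12 without Bmal1WT replicate 1. In mouse, Cd4 is also found on some dendritic cells and macrophages. Beside 52% and 5.05% of all genes, macrophage markers were higher for 10 of 12 genes, 2 of them at an unadjusted p under 0.05. Their summed level was 3673 to 7698 CPM in Bmal1KO and 4199 to 6136 CPM in Bmal1WT, lowest in the same Bmal1KO replicate 1. Dendritic cell markers were higher for 6 of 7 tested, 2 of them at an unadjusted p under 0.05, with summed levels of 173 to 340 CPM in Bmal1KO and 211 to 238 CPM in Bmal1WT. Clec9a, a receptor of cross-presenting dendritic cells, had a log2 fold change of 2.53 (SE 0.51), above that of any of the 9 genes. Its groups did not overlap, and Ccr7 had a log2 fold change of 1.04. The other markers tested stood at 1.27 for Flt3, 0.37 for Xcr1, 0.25 for Zbtb46, 0.11 for Itgax and -0.09 for Cd209a. Zbtb46 and Itgax exceeded the floor of 3 counts in every library, while Flt3 had only 3 counts in Bmal1WT replicate 3. The part of dendritic cells and macrophages in the Cd4 level was not tested.

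Set against the CD8 genes, Cd4 made up 13.4%, 25.3% and 22.7% of the summed Cd4, Cd8a and Cd8b1 counts in Bmal1KO replicates 1 to 3, and 44.4%, 18.9% and 39.7% in Bmal1WT. The Bmal1WT replicate 1 share rests on 9 counts (95% exact Clopper-Pearson interval 13.7% to 78.8%, counting error only). The mean difference, Bmal1KO minus Bmal1WT, was -13.9 percentage points (2-sided exact permutation p = 0.3, where 3 libraries against 3 allow no p below 0.1), so a shift between CD4 and CD8 transcripts was not detectable here.

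The kinases both had a higher mean in Bmal1KO, with very different spread. Lck, the Src-family kinase that starts receptor signalling, had 16.2, 47.8 and 29.9 CPM in Bmal1KO replicates 1 to 3, against 0.684, 10.9 and 8.29 CPM in Bmal1WT. All Bmal1KO libraries lay above all Bmal1WT libraries, and Bmal1WT replicate 1, with 6 counts, lay far below the rest. The log2 fold change was 2.24 (SE 0.76, edgeR adjusted p = 0.462). Without Bmal1WT replicate 1 alone it was 1.72 (edgeR adjusted p = 0.695). Without Bmal1KO replicate 1 alone it was 2.55 (edgeR adjusted p = 0.298). When replicate 1 of both groups was left out, it was 2.02 (SE 0.32) and passed the edgeR test over all genes (adjusted p = 0.0358), the 1 member to do so. That setting keeps only replicates 2 and 3 of each group, and 61 of 13958 genes passed in it, 11 higher and 50 lower. Zap70, the kinase that docks on the phosphorylated CD3 chains, had 6.92, 9.85 and 5.46 CPM in Bmal1KO and 0, 5.98 and 1.94 CPM in Bmal1WT. No Zap70 read was counted in Bmal1WT replicate 1, whose floor of 3 counts corresponds to 0.342 CPM, while Bmal1WT replicate 2 exceeded Bmal1KO replicate 3. Its log2 fold change of 1.49 (SE 0.92, edgeR adjusted p = 0.635) was the least certain of the set, at 0.91 without Bmal1WT replicate 1 and 2.91 without Bmal1WT replicate 2.

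The adaptors had the smallest standard errors of the 9 genes. Lat, the membrane scaffold phosphorylated by ZAP70, had 14.3, 19.5 and 14.3 CPM in Bmal1KO replicates 1 to 3, against 3.42, 7.85 and 4.84 CPM in Bmal1WT. Every Bmal1KO library was at least 1.82 times the highest Bmal1WT library. With means of 16.0 ± 3.00 CPM in Bmal1KO and 5.37 ± 2.26 CPM in Bmal1WT (SD, n = 3 each), Lat had the smallest p of the 9 and ranked 47 of 13859 genes (log2 fold change 1.58, SE 0.37, adjusted p = 0.376 by edgeR and 0.0485 by DESeq2). With 1 library left out its log2 fold change ranged from 1.34 to 1.95. LAT also serves the IgE receptor of mast cells, and mast cell markers differed in the same direction. All 9 mast cell markers tested were higher, 7 of them at an unadjusted p under 0.05, with summed levels of 269 to 419 CPM in Bmal1KO and 75.4 to 158 CPM in Bmal1WT. Ms4a2, a chain of that receptor, was under the filter on low counts, with 17, 9 and 4 counts in Bmal1KO replicates 1 to 3 and 20, 6 and 0 in Bmal1WT. Fcer1a, another of its chains, had 113, 64 and 144 counts in Bmal1KO and 66, 85 and 13 in Bmal1WT. Its log2 fold change was 1.16 (SE 0.59), and the groups overlapped. The part of mast cells in the Lat level was not tested.

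Skap1, the adaptor that couples the receptor to integrins, had 6.62, 10.2 and 15.0 CPM in Bmal1KO, against 1.71, 5.51 and 3.77 CPM in Bmal1WT. The groups did not overlap, with Bmal1KO replicate 1 at 1.20 times Bmal1WT replicate 2 (log2 fold change 1.53, SE 0.49, edgeR adjusted p = 0.418). Natural killer cells use CD247, LCK, ZAP70 and LAT as well, and share part of this set with T cells. Of 12 natural killer cell markers tested, 9 were higher, beside 52% of all genes, and 3 lower, with a median log2 fold change of 0.28. At an unadjusted p under 0.05 were 2, both higher: Il2rb (log2 fold change 1.37) and Txk (2.66), which is also a kinase of the pathway. The summed level of the list was 54.0 to 106 CPM in Bmal1KO, overlapping with 28.5 to 87.1 CPM in Bmal1WT. Nkg7 gave the most of it, at 18.2 to 40.0 CPM in Bmal1KO and 6.84 to 34.1 CPM in Bmal1WT. The activating receptor Ncr1 had 8, 43 and 23 counts in Bmal1KO and 6, 14 and 16 in Bmal1WT. Eomes, under the filter on low counts, had 10, 9 and 2 counts in Bmal1KO and 0, 5 and 0 in Bmal1WT. The 3 lower markers were Prf1, which encodes perforin (22, 5 and 2 counts in Bmal1KO, against 18, 58 and 21 in Bmal1WT; log2 fold change -1.46), and the receptors Klrb1c and Klri2 (-0.53 each). Group 2 innate lymphoid markers summed to 113 to 133 CPM in Bmal1KO and 97.3 to 129 CPM in Bmal1WT, with Il13 at 0 in every library. Most of that sum came from Il7r and Rora, with log2 fold changes of 0.07 and -0.03. Of 6 tested, 4 were higher (median 0.14), where 52% of all genes were. At an unadjusted p under 0.05 was 1 of them, beside 5.05% of all genes. That was Gata3 (log2 fold change 1.58, SE 0.69), with 41, 52 and 26 counts in Bmal1KO and 3, 23 and 19 in Bmal1WT. The part of these lymphocytes in the levels of the shared genes was not tested. Whether the RNA of the listed markers came from these cells or from T cells was not tested either.

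**Figure D3:**
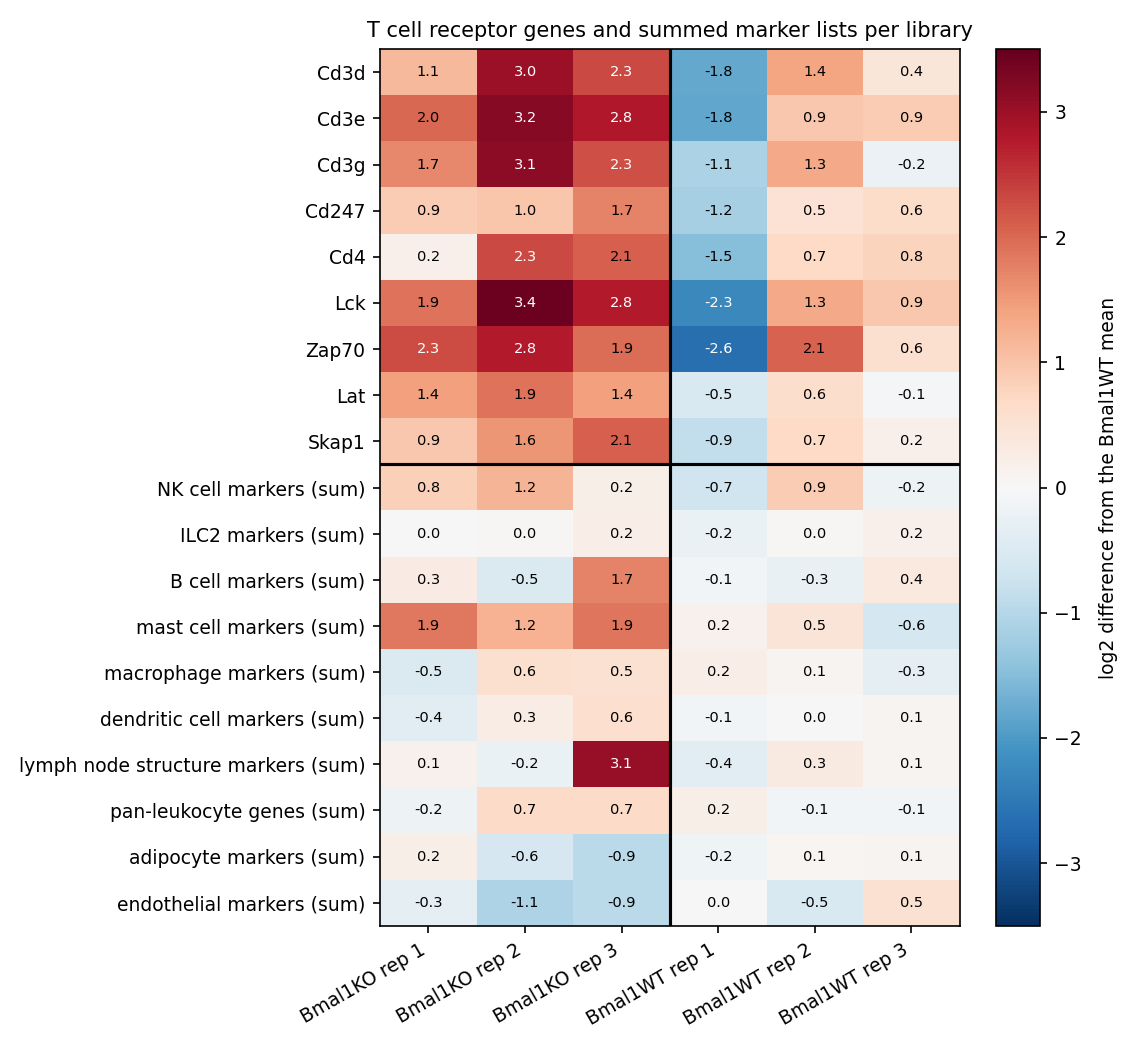
Log2 difference of each library from the Bmal1WT mean for the 9 genes (upper rows, log2 CPM, prior count 2) and for the summed level of marker lists (lower rows), with Bmal1KO libraries in the left columns. Averaged over the 9 genes, Bmal1KO replicates 1 to 3 stood at 1.38, 2.47 and 2.16, and Bmal1WT replicates 1 to 3 at -1.52, 1.06 and 0.46.

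Libraries differed as a block. Summed over the 9 genes, the level was 81.0, 185 and 136 CPM in Bmal1KO replicates 1 to 3, against 10.7, 61.8 and 39.8 CPM in Bmal1WT. Bmal1KO replicate 2 was thus the highest library and Bmal1WT replicate 1 the lowest by far. The 36 pairs of genes correlated at 0.778 to 0.993 over the 6 libraries (median 0.928, Pearson's r of log2 CPM), lowest for Cd4 with Lat and highest for Cd3e with Lck. The libraries carry both the group difference and their own differences in T cell transcripts, so this is a description and not a measure of co-regulation. The make-up of the sum varied by gene. Cd3e supplied 7.98%, 7.97% and 8.27% of the summed counts in Bmal1KO and 2.13%, 4.74% and 7.03% in Bmal1WT, whereas Cd247 supplied 4.78% to 11.1% in Bmal1KO and 10.2% to 17.3% in Bmal1WT. The Cd4 share was 2.41% to 5.91% in Bmal1KO and 4.26% to 7.84% in Bmal1WT.

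Genes of leukocytes at large had smaller fold changes. Ptprc, which encodes the leukocyte antigen CD45, had a log2 fold change of 0.70 (SE 0.19, edgeR adjusted p = 0.414), and all 8 pan-leukocyte genes had a fold change above 0, with a median of 0.49. Their summed level was 1177, 2110 and 2122 CPM in Bmal1KO replicates 1 to 3, against 1524, 1253 and 1244 CPM in Bmal1WT, so that Bmal1KO replicate 1 lay below every Bmal1WT library. For every 100 Ptprc counts, the 9 genes together had 72.3, 110.1 and 84.4 counts in Bmal1KO replicates 1 to 3, against 13.8, 61.4 and 42.3 in Bmal1WT. The groups did not overlap on this scale either, but the share of all genes separated in this way was not computed. Against Cd2, an adhesion receptor of T and natural killer cells, they had 728, 892 and 775 counts per 100 in Bmal1KO and 136, 447 and 394 in Bmal1WT.

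Per kilobase of merged exon (GENCODE M21), Cd3d and Lck were the highest of the 9 in both groups. In Bmal1KO the order was Cd3d at 11.1 ± 6.44 CPM per kb (SD, n = 3), Lck at 10.7 ± 5.40, Cd3g at 6.31 ± 3.27, Lat at 5.79 ± 1.09, Cd3e at 2.65 ± 1.02, Zap70 at 2.48 ± 0.748, Cd247 at 2.02 ± 0.715, Cd4 at 1.61 ± 0.995 and Skap1 at 1.42 ± 0.565. Lat and Cd3e were the only neighbours in that order whose library ranges did not overlap. In Bmal1WT, levels ran from 2.99 ± 2.56 CPM per kb for Cd3d to 0.487 ± 0.373 for Cd3e, and the ranges of all neighbours overlapped. Cd3e was thus lowest in Bmal1WT, and in Bmal1KO its mean was above those of Zap70, Cd247, Cd4 and Skap1, though the library ranges overlapped. The lengths take in all annotated exons of a gene, and the annotation used for counting is not known. The order between genes therefore depends on the lengths taken.

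**Figure D4:**
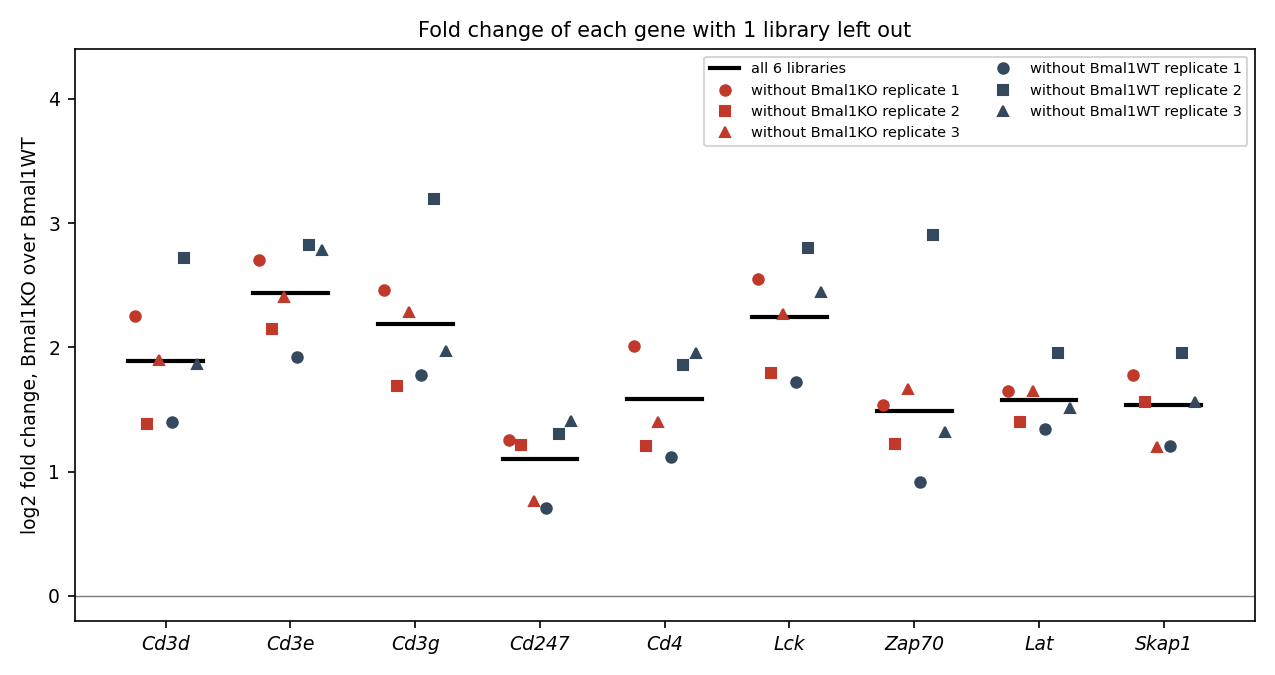
Log2 fold change (Bmal1KO over Bmal1WT) of each gene with all 6 libraries (black line) and with 1 library left out (red, a Bmal1KO library; dark blue, a Bmal1WT library; circle, square and triangle, replicates 1 to 3). All values are above 0, from 0.71 for Cd247 without Bmal1WT replicate 1 to 3.19 for Cd3g without Bmal1WT replicate 2.

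The size of the difference depended on single libraries of both groups. Leaving out Bmal1WT replicate 1, the library with epididymal transcripts, gave the lowest median over the 9 genes (1.34), and leaving out Bmal1WT replicate 2 the highest (2.72). Leaving out a Bmal1KO library gave medians of 2.01, 1.40 and 1.66 for replicates 1 to 3. With replicate 1 of both groups left out the median was 1.54, and 8 of 9 genes did not overlap between groups, beside 23.2% of all genes under the same condition.

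Other genes of the pathway were described by role. List medians ran from 2.14 for receptor constant chains to 0.26 for downstream enzymes and transcription factors, and differences between lists were not tested. No member of any of these lists passed the edgeR test over all genes. Receptor constant chains had a median log2 fold change of 2.14 over 3 tested genes, 2 of them at an unadjusted p under 0.05. Trbc2 and Trbc1, constant segments of the beta chain, had 17.4 ± 8.62 and 14.9 ± 10.6 CPM in Bmal1KO, against 3.83 ± 2.00 and 3.38 ± 3.06 CPM in Bmal1WT (SD, n = 3). These segments are nearly identical, so the split of reads between them is uncertain. Trac, of the alpha chain, had 12.8 ± 2.80 CPM in Bmal1KO and 8.10 ± 3.01 CPM in Bmal1WT, with a log2 fold change of only 0.66 (SE 0.36).

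All 10 coreceptors and costimulatory receptors were higher (median 1.62), 6 of them at an unadjusted p under 0.05. Slamf6, a receptor of the SLAM family, had 11.4 ± 3.77 CPM in Bmal1KO and 3.84 ± 0.728 CPM in Bmal1WT (log2 fold change 1.57, SE 0.38). The costimulatory receptor Cd27 had 7.56 ± 2.09 CPM in Bmal1KO and 2.17 ± 0.263 CPM in Bmal1WT (1.79, SE 0.44). Among other proximal kinases, 6 of 6 were higher and 3 at an unadjusted p under 0.05. Prkcq, the protein kinase C theta that acts downstream of the receptor, had a log2 fold change of 1.77 (SE 0.46). Txk, a kinase of the TEC family that also stands in the list of natural killer cell markers, had one of 2.66 (SE 0.82). Fyn, Csk and Tec, which many cell types express, had log2 fold changes of 0.19 each, below their SE of 0.23 to 0.31.

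Of 15 other adaptors and exchange factors tested, 13 were higher and 2 lower (median 0.67), 6 of them higher at an unadjusted p under 0.05. The T cell adaptor Sh2d2a was at 7.33 ± 2.80 CPM in Bmal1KO and 2.58 ± 0.747 CPM in Bmal1WT (log2 fold change 1.51, SE 0.47). Tespa1, which acts in thymocyte receptor signalling, had a log2 fold change of 2.14 (SE 0.69). Lcp2, the SLP-76 adaptor that LAT recruits and that myeloid cells also use, had one of 0.61 (SE 0.22). Downstream enzymes and transcription factors differed least, with 0 of 11 at an unadjusted p under 0.05 and a median of 0.26. The phospholipase Plcg1, which LAT also recruits, had 31.0 ± 11.7 CPM in Bmal1KO and 42.7 ± 1.54 CPM in Bmal1WT (log2 fold change -0.46, SE 0.26). Of the calcium-driven transcription factors, Nfatc2 stood at 0.73 (SE 0.36) and Nfatc1 at 0.46 (SE 0.25).

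Negative regulators of the pathway were higher for 12 of 13 genes (median 0.57), 4 of them at an unadjusted p under 0.05. Pdcd1, which encodes the inhibitory receptor PD-1, had 5.71 ± 1.99 CPM in Bmal1KO and 1.79 ± 0.411 CPM in Bmal1WT (log2 fold change 1.66, SE 0.51). The phosphatase Ubash3b stood at 0.82 (SE 0.26) and the ubiquitin ligase Cblb at 0.67 (SE 0.26), as log2 fold changes. Ptpn22, a phosphatase that acts on LCK and ZAP70, was the gene with a value below 0, at -0.44 (SE 0.30).

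**Figure D5:**
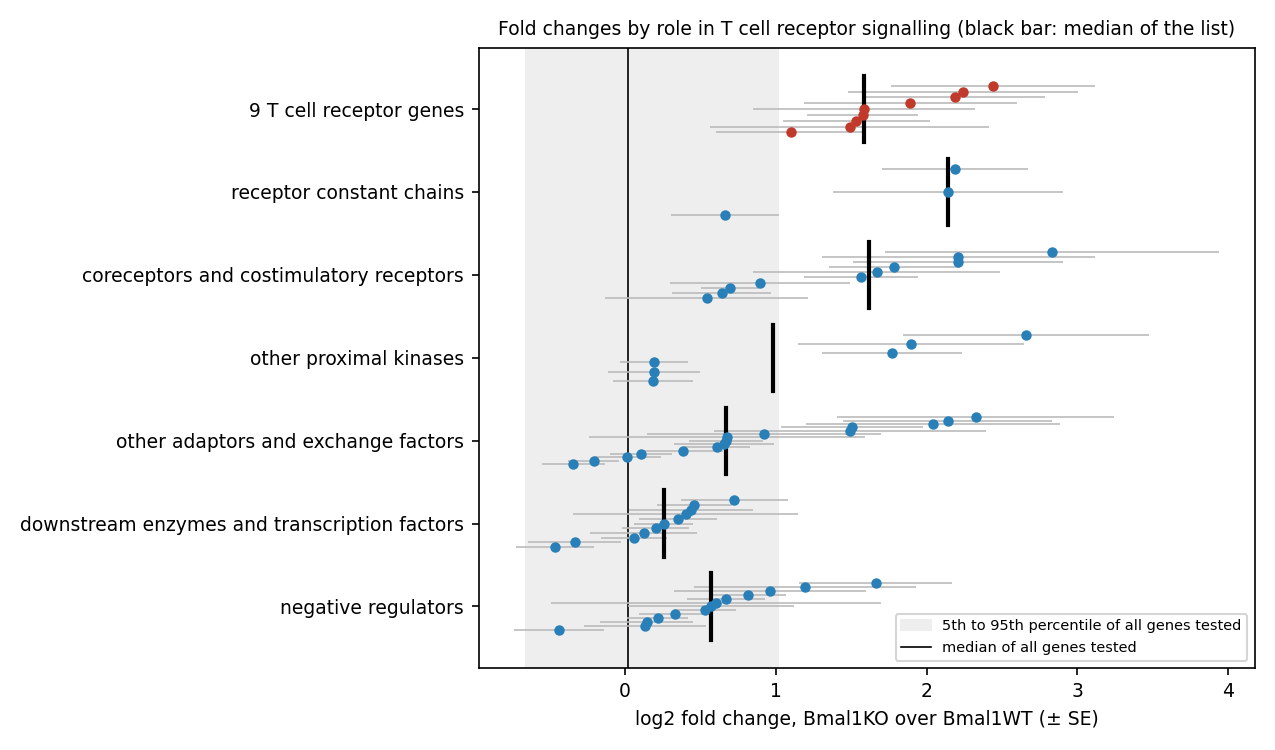
Log2 fold changes (Bmal1KO over Bmal1WT, ± SE) of the 9 genes (red) and of other genes of the pathway by role (blue), with the median of each list as a black bar; the grey band spans the 5th to 95th percentile of all genes tested, -0.66 to 1.02. All 9 genes lie above the band, whereas all 11 downstream enzymes and transcription factors lie inside it.

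Markers of other cells in or beside the fat also differed between libraries. B cell markers were higher for 9 of 10 tested, 2 of them at an unadjusted p under 0.05, with a median log2 fold change of 2.05, above the 1.59 of the 9 genes. Their summed level of 89.5 to 427 CPM in Bmal1KO, highest in replicate 3, enclosed the 107 to 163 CPM of Bmal1WT. Ebf1, which adipocytes also express, made up 50.5 to 91.1 CPM of the sum in Bmal1KO and 72.8 to 97.7 CPM in Bmal1WT (log2 fold change -0.29). Pax5, under the filter on low counts, had 27, 0 and 38 counts in Bmal1KO replicates 1 to 3 and 0, 2 and 5 in Bmal1WT. Lymph node structure markers summed to 39.5, 30.2 and 298 CPM in Bmal1KO and to 27.0, 44.9 and 38.0 CPM in Bmal1WT, of which Cxcl13 gave most in Bmal1KO replicate 3 with 2349 counts. Of the other genes of that list, Glycam1, a ligand of lymphocyte homing in high endothelial venules, had 9, 1 and 16 counts in Bmal1KO replicates 1 to 3 and 0 in each Bmal1WT library. Cr2, a complement receptor of B cells and follicular dendritic cells, had 14, 4 and 19 counts in Bmal1KO and 0, 0 and 4 in Bmal1WT. Other genes of the list did not share this pattern. Ccl19 had 2, 6 and 2 counts in Bmal1KO and 1, 4 and 10 in Bmal1WT, and Clec4g 5, 0 and 0 against 0, 9 and 2. Chst4 had a log2 fold change of 0.20 (SE 0.64) and was lowest of all libraries in Bmal1KO replicate 3, at 1.99 CPM. The chemokine gene Ccl21a was listed at 0 in all 6 libraries, and how reads shared with near-identical copies were counted is not known. Adipocyte markers were lower for 12 of 12, at 14952 to 32850 CPM in Bmal1KO and 25776 to 30879 CPM in Bmal1WT, and endothelial markers for 10 of 10, at 318 to 530.5 CPM in Bmal1KO and 465 to 974 CPM in Bmal1WT. Bmal1KO replicate 1, at 32850 CPM, was the highest of all libraries for adipocyte markers and the lowest of its group in the 9 genes. The part of these shifts in the T cell receptor results was not tested.

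The genes most alike in pattern were ranked over the 6 libraries by Pearson's r with the mean of the 9 genes, among 12442 genes with a mean of at least 1 CPM. The 8 highest were Msh5 (r = 0.996), Sall2 (0.994), Dennd2d (0.993), Sema4d (0.993), Rbm17 (0.991), Dhx9 (0.990), Rprd1a (0.990) and Tiam2 (0.985). Their log2 fold changes were smaller than the median of the 9 genes, from 0.31 for Rbm17 to 1.04 for Msh5. With 6 libraries and 12442 genes such values are a description and say nothing of shared function.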

How the data were processed

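Whole visceral fat was profiled in 3 Bmal1KO and 3 Bmal1WT samples, grouped by their titles. Whether each sample is 1 animal is not stated in the labels, and p-values then speak only of the variation among these 6 samples, which may be technical. Per the labels' protocols, cDNA was made from 2 ng of RNA with anchored oligo(dT), amplified by PCR and cut with the Nextera XT kit, without strand marking or molecular identifiers, so intervals and floors cover counting error only. The authors deposited whole-number counts per gene symbol, made with STAR 2.7.3a on mm10 and featureCounts, per the submitters' processing notes. Neither the gene annotation nor how multi-mapping reads were treated is given in the sources used here.

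Counts were tested with edgeR 4.0.16 (R 4.3.3): filterByExpr, TMM, quasi-likelihood F-test with robust dispersion, no covariates, Benjamini-Hochberg adjustment, threshold 0.05. The filter asked for about 1.15 CPM in 3 libraries, which Cd3d, Cd3e, Cd4, Lck and Zap70 reached in 3 Bmal1KO and 2 Bmal1WT libraries and the other 4 genes in all. SE is the unshrunken coefficient over the square root of F. The test was checked on simulated counts with the same dispersion for every gene and no outlying library. That check therefore does not cover the uneven spread of these libraries. Alternatives were DESeq2 1.42.0, limma voom 3.58.1, other scalings and filters, the replicate number as a block, and libraries left out. Replicates of a group differed by far more than sampling noise. Coordinates and lengths came from GENCODE M21.

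The genes, lists and motifs were chosen with earlier results of these data known. All 9 genes are named. From each pathway list up to 3 genes of smallest p are named, except 1 that is not reported here; the other genes named from these lists, and marker genes named singly, were chosen after their values were seen. The most alike genes are the 8 of highest correlation, leaving out predicted genes and receptor segments.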

Additional observations from a re-analysis of the deposited data

How the results depend on the processing

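The log2 fold changes of all 9 genes stayed above 0 under every alternative tried, and 119 of 126 such values stayed on the same side of the threshold. The other 7 passed it: Cd3e, Cd3g and Lat by DESeq2 and in edgeR without a filter, and Lck without replicate 1 of both groups. The number of genes past the threshold was 0 with all libraries, TMM and edgeR's filter (1290 at an unadjusted p under 0.05), 0 by limma voom (1683 unadjusted), 60 by DESeq2, 186 without a filter and 61 without replicate 1 of both groups. With 1 library left out it ranged from 0 to 156, with 156 without Bmal1KO replicate 1, 6 without Bmal1KO replicate 2 and 1 without Bmal1WT replicate 1; the cause was not tested. The median over the 9 genes ranged from 1.34 to 2.72 with 1 library left out. With library size alone for scaling, the median of all genes was 0.11 and that of the 9 genes 1.67. The number of the 9 with no overlap between groups ranged from 6 to 8 (12% to 17% of all genes), and the number at an unadjusted p under 0.05 from 5 to 8 (4.17% to 7.53% of all genes), with 1 library left out; these 2 counts were added after seeing the data. The difference in the Cd4 share ranged from -21.6 to -8.86 percentage points.

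Same-numbered samples did not deviate together (correlations -0.07, 0.09 and -0.03), and 2 of 6 samples correlated best with their own number. With the replicate number as a block, 0 genes passed, the median of the 9 genes was 2.11, and 8 of them had an unadjusted p under 0.05, beside 4.4% of all genes. Depth limits Zap70, Cd3e and Cd4 most, since Bmal1WT replicate 1 held 0, 2 and 4 counts of them.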

Other observations

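In Bmal1WT replicate 1 the alpha-chain constant gene Trac and the CD3 genes did not go together. Trac had 66, 115 and 125 counts in Bmal1KO replicates 1 to 3 and 98, 68 and 48 in Bmal1WT replicates 1 to 3. Bmal1WT replicate 1 thus held the most Trac counts of its group and the fewest of each CD3 gene. For every 100 Trac counts, the 9 genes together had 817, 1419 and 880 counts in Bmal1KO, against 95.9, 775 and 771 in Bmal1WT. Lat supplied 10.5% to 17.6% of the summed counts of the 9 genes in the Bmal1KO libraries, against 31.9% in Bmal1WT replicate 1 and 12.2% and 12.7% in the other Bmal1WT libraries. Trdc, of the delta chain of gamma-delta T cells, had 8, 1 and 5 counts in Bmal1KO and 1, 7 and 1 in Bmal1WT. It was not tested, being under the filter on low counts.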
